A study of Mus musculus with 7 samples.

Results

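Of 4060 strong H3K79me2 regions in macrophages grown from mouse bone marrow, 273 (6.72%) kept at least 25% of their read count when the cells were grown with an inhibitor of the enzyme that writes the mark. They lay over shorter and more densely marked genes than other strong regions did, among them splicing regulators, small GTPases, actin regulators and lysosomal genes. A strong region is one on chromosomes 1 to 19 with a mean of at least 500 raw reads over the 6 ChIP libraries, and the percent kept is the mean count with SGC0946 over the mean count with DMSO, with no scaling between libraries. The 273 were chosen by those raw counts and that ratio, so neither is tested here. The table held 29397 regions, 28544 of them on chromosomes 1 to 19. Outside those chromosomes, 7 of 82 regions with a mean of at least 500 met the same ratio and were not included.

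H3K79me2 is dimethylation of lysine 79 of histone H3. DOT1L, the only enzyme known to write this methylation in mammals, acts in complexes tied to transcription elongation, and the mark lies over the transcribed part of active genes, beginning near the start site. No demethylase is generally agreed to remove it, so the mark is lost mainly as nucleosomes are replaced or diluted by cell division. SGC0946 is a small molecule that occupies the cofactor pocket of DOT1L.

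Chromatin came from C57BL/6 bone marrow cultured for 7 to 8 days with 15% L929-conditioned medium, which supplies the growth factor M-CSF. One group of 3 libraries came from cultures given 1 µM SGC0946 while they differentiated, and the other 3 from cultures given the solvent DMSO. The growth protocol speaks of both wild-type and knockout mice and does not say which gave these samples, and age and sex are not in the labels. An input sample is listed too and was not analysed here. The design calls the libraries of a group biological replicates. The labels, M1 to M3 in each group, do not state which mouse gave a culture. Spreads and p-values therefore measure the differences between these libraries. The total in the regions was 16.7 to 19.5 M counts with DMSO and 2.95 to 3.13 M with SGC0946. How many reads were sequenced per library is known only as a nominal 40 M, and each percent kept rests on that being equal. In bulk chromatin, fewer cells carrying the mark and less of it per cell cannot be told apart. All 24 macrophage identity genes carried a region, against 5 of 16 markers of other blood cells and 2 of 12 stromal and endothelial markers. Of those 2 other lists, 1 gene was touched by a strong region: Zbtb46, a dendritic cell factor, is overlapped by a region labelled Zgpat that kept 12.5%.

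The promoters of the genes of 3 of the highest regions, and of 2 family members that lost most of the mark, are printed to show what kind of start site each gene has. Each is the 250 bases upstream of the listed start, 5′ to 3′ on the gene's strand, from RefSeq (GRCm38.p6), with CpG dinucleotides in capitals. Tra2b is at chr16:22266006-22266255 on the minus strand, Rbpj at chr5:53590096-53590345 on the plus strand, Psap at chr10:60277378-60277627 on the plus strand, Hnrnph3 at chr10:63023850-63024099 on the minus strand and Arf3 at chr15:98763119-98763368 on the minus strand.
Tra2b: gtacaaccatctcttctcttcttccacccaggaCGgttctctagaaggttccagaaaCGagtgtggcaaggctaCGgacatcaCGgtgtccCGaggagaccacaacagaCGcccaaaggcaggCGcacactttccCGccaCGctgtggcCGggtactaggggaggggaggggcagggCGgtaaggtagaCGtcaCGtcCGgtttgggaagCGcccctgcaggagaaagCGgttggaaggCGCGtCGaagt
Rbpj: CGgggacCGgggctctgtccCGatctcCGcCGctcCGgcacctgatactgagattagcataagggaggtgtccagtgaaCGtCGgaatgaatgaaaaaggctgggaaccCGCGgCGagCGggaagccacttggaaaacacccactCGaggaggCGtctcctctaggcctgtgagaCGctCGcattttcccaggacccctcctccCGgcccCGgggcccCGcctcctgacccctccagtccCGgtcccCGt
Psap: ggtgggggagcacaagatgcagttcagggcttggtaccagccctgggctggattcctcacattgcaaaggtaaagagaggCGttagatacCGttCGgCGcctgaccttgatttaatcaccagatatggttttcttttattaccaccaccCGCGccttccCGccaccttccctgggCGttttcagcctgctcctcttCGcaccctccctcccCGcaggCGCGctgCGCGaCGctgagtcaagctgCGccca
Hnrnph3: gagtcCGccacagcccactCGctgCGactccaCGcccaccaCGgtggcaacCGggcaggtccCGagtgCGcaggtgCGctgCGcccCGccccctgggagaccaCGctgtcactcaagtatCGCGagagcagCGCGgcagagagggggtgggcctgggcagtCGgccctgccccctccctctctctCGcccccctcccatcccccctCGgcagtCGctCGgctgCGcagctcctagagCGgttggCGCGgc
Arf3: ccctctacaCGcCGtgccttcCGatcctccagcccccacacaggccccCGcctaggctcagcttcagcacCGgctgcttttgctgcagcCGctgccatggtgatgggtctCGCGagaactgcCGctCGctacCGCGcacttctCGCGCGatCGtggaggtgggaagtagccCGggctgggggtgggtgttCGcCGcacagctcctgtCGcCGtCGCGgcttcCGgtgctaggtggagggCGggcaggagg
The first 3, whose regions kept 79.7%, 72.4% and 71.9%, held 19, 21 and 16 CpGs. Hnrnph3 and Arf3, whose regions kept 12.9% and 10.8%, held 25 each. CpG-rich starts were thus found at both ends of the range.

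Few of the 273 regions kept the larger part of the mark. The median was 30.3% of the DMSO count (range 25.2% to 79.7%), 21 regions (7.69%) kept at least 50%, 118 kept 30% to under 50% and 134 kept 25% to under 30%. The other 3787 strong regions kept a median of 13.2%, from 8.64% to 24.99%. In all 273 the lowest DMSO count was above the highest SGC0946 count, where 99.7% of all tested regions were called lower and 0.0201% higher on unscaled counts. Against the mean DMSO count, 241 were at or over 25% in each SGC0946 library on its own. The median was 31.5%, 29.2% and 30.3% in SGC0946 replicates 1, 2 and 3, and the order of the regions was much the same (Spearman correlation 0.917 to 0.944 over 273 regions, which share the DMSO mean). All 273 were called higher in their share of the library (edgeR quasi-likelihood test, adjusted p under 0.05), against 6.16% of all tested regions. The rule used that contrast, so the count is a description. The regions made up 10.6 ± 0.193% of the counts of a DMSO library (SD, n = 3) and 22.1 ± 0.729% of those of an SGC0946 library (SD, n = 3), on 4.56% of the covered bases.

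Tra2b, an SR-like splicing factor, kept the most. Its region (chr16:22249189-22266247) held 6374, 7237 and 7949 counts with DMSO and 6011, 5551 and 5629 with SGC0946, or 79.7 ± 3.43% of the DMSO mean (SD over the 3 SGC0946 libraries, as in all percentages below). The highest SGC0946 library was close under the lowest DMSO library. Rbpj, the DNA-binding factor of Notch signalling, had 19984, 21121 and 23652 counts with DMSO and 16706, 15143 and 15016 with SGC0946 (72.4 ± 4.36%).

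Psap, the precursor of the saposins that assist sphingolipid breakdown, kept 71.9 ± 3.9%, with 11823, 12232 and 13916 counts against 9558, 8580 and 9180. Rap1b, a GTPase of integrin-based adhesion, kept 70.5 ± 4.06% and the splicing factor Srsf3 66.7 ± 4.4%. Cdc42, which directs actin polarity, kept 65.3 ± 4.03%, Hnrnpf 64.7 ± 1.7%, Rab1a, a GTPase of transport from the endoplasmic reticulum to the Golgi, 64.3 ± 3.88%, and the RNA helicase Dhx9 58.5 ± 2.3%. In each of these the SGC0946 libraries were below the DMSO libraries.

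**Figure D1:**
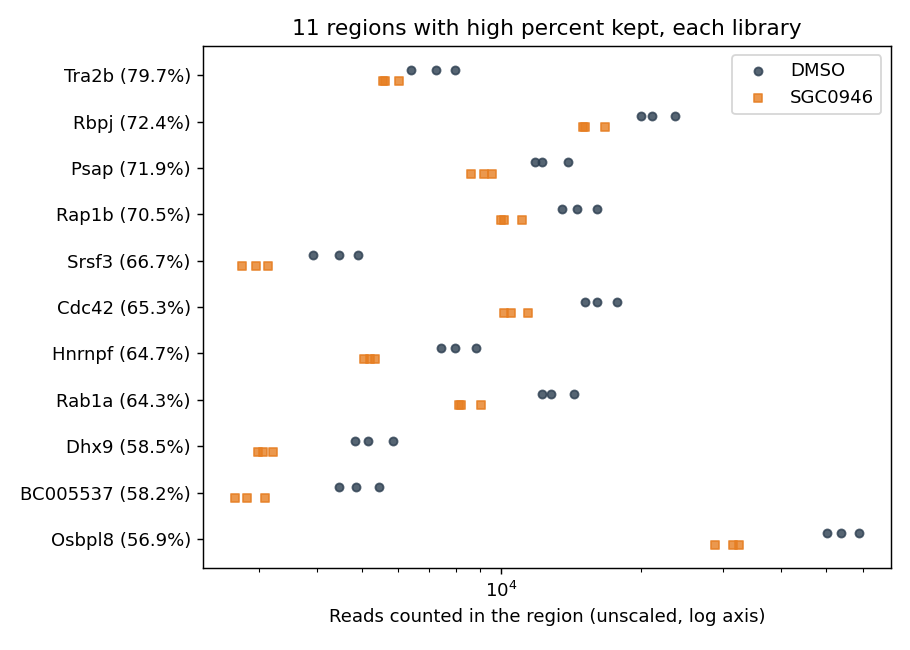
Unscaled reads counted (log axis) in 11 regions with high percent kept, with 1 point per library (circles, DMSO; squares, SGC0946; 3 libraries each). Tra2b has the groups closest together (5551 to 6011 against 6374 to 7949), and no region has overlapping groups.

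The region with the most counts was also the longest. Osbpl8, a lipid transfer protein of the endoplasmic reticulum, carried a region of 119362 bp (chr10:111163627-111282988) with 50314, 53702 and 58938 counts with DMSO and 32400, 28860 and 31459 with SGC0946, or 56.9 ± 3.38%. Fnip2, a partner of folliculin in nutrient signalling, kept 39.7 ± 1.49% over 75529 bp. The receptor adaptor Grb2 kept 35.5 ± 1.78%, the nuclear receptor coactivator Ncoa3 29.2 ± 0.795%, the endocytic receptor Lrp12 29.8 ± 1.57% and the RNA-binding protein Qk 25.7 ± 0.805%. The shortest regions lay on Rps9, a ribosomal protein gene (2866 bp, 28.9 ± 1.13%), Slc35f6 (3223 bp, 28.1 ± 1.93%), cytoplasmic actin Actg1 (3568 bp, 34.6 ± 4.15%) and the glycolytic enzyme Gapdh (3798 bp, 29.4 ± 1.56%). Actg1, Actb and Gapdh have processed copies elsewhere in the genome, so their counts depend on how reads with several matches were handled, which the sources used here do not state.

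At the ratio limit the values were continuous. Just inside were Bcl2l1, an inhibitor of apoptosis (25.22%), Trim25, a ubiquitin ligase of antiviral signalling (25.19%), and a region with no annotated gene at chr4:6349845-6357259 (25.16%). Just outside were the dynein heavy chain Dync1h1 (24.99%), Map7d1 (24.83%) and the integrin Itgb1 (24.78%). At the count limit, the chemokine receptor Ccr1 and Rps9 were just inside, and Nf1 (26.7%) and Bcl2a1b (29.7%) just outside. The region labelled Nf1 covered 1.65% of that gene and also overlapped Evi2 and Evi2a.

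The 273 regions were denser than other strong regions already with DMSO. The median with DMSO was 321 counts per kb against 167, and with SGC0946 96.7 against 21.4 counts per kb. The lowest value among the 273 with SGC0946 was 43.0 counts per kb, and the background taken from the sparsest 10% of regions was 4 to 6 counts per kb in those libraries. When strong regions were put in 10 equal bins by DMSO density, the 4 sparsest bins held none of the 273 and the densest held 164 of 406 (40.4%). The bin before it held 64 of 406 (15.8%). The median percent kept over all strong regions in a bin ran from 12.7% in the sparsest to 22.9% in the densest. DMSO counts enter both the density and the percent kept, and over the 4060 strong regions the 2 had a Spearman correlation of 0.607. Within the 273 it was 0.234.

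**Figure D2:**
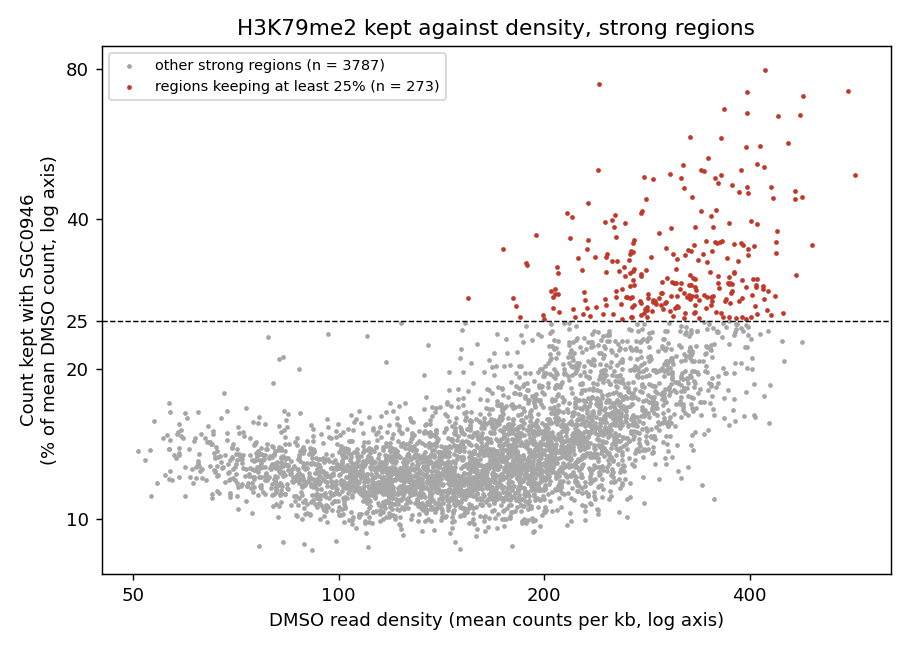
Percent of the mean DMSO count kept with SGC0946 (log axis) against mean DMSO counts per kb (log axis), with 1 point per strong region. The 273 regions over the 25% line begin at 155 counts per kb and are most frequent at the dense end, where other strong regions remain below the line.

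Density left much of the range open. Of the 406 densest strong regions, 242 were under the ratio. Sirpa, the densest of the 273 at 570 counts per kb, kept 49.0 ± 3.37%, while Tra2b at 421 counts per kb kept 79.7%. Grb2 at 494 counts per kb kept 35.5%.

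The regions covered more of their genes than other strong regions did. The median was 80.6% of the annotated span of the gene with the longest overlap, against 36.9%, and 98 of 272 (36%) covered at least 90% of it, against 294 of 3779 (7.78%). Region length differed less (median 17222 against 14484 bp) than the length of the gene below (24978 against 45261 bp). Genes of at least 50 kb lay under 15.8% of the 273 and 45.9% of the others. Within the densest 10% of strong regions the median gene lengths were closer, 29210 bp against 37599 bp for regions under the ratio. The median 5′ edge minus the listed start was -227 bp against -216 bp there. Among all strong regions whose gene had a listed start, 197 of 222 (88.7%) of the 273 held it, against 2031 of 3070 (66.2%) of the others. The region reached to or past the annotated gene end in 51 of 222 (23.0%) against 175 of 3070 (5.70%).

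The region of Srsf3 ran from 343 bp upstream of the start to 1035 bp past the annotated end, that of Cdc42 to 2855 bp past it and that of Rab1a to 4116 bp past it. Rap1b and Psap were each covered to 96.8%. Some regions stopped early: Mbnl1, a splicing regulator, was covered to 11.2% by a region that kept 55.7 ± 3.27%, and Rbpj to 38.1%.

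Coverage and density overlapped but did not coincide. Among all strong regions, 1.22% of those that covered under 25% of the gene met the ratio, 3.28% of those that covered 25% to under 50%, 8.19% at 50% to under 75%, 14.5% at 75% to under 90% and 25.0% at 90% or more. Within the densest 10% of strong regions the shares ran 24.1%, 25.2%, 40.9%, 45.8% and 63.4%. These are descriptions of regions, which are not replicates.

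**Figure D3:**
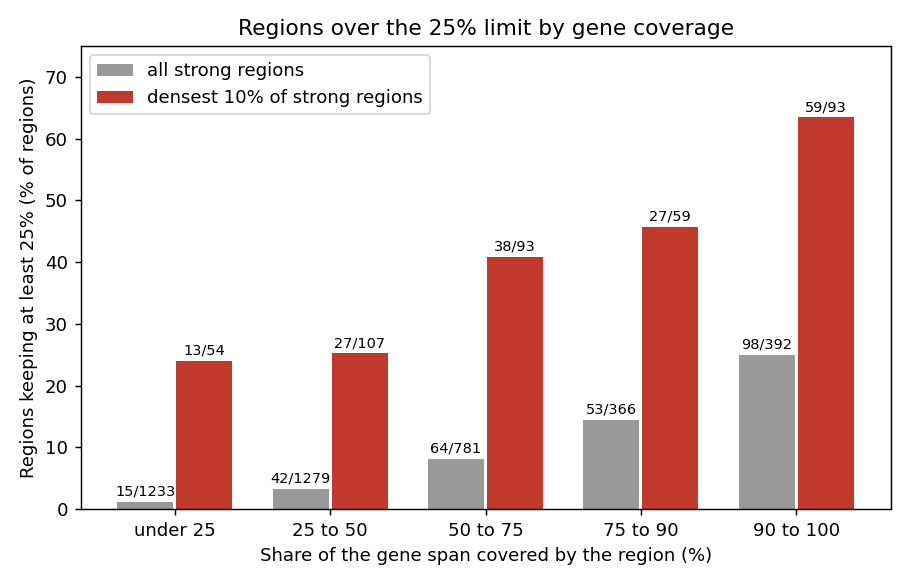
Share of strong regions that kept at least 25% of the DMSO count (bars, from 0) by the share of the gene span that the region covers, for all strong regions and for the densest 10%. In both sets the share is highest where the region covers 90% or more of the gene (25.0% and 63.4%).

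The promoters of the 273 were close to those of other strong genes in CpG count and in most motifs searched. Of their genes, 222 had an entry in the RefSeq promoter table (221 distinct promoters, counted over 250 bases upstream). The median was 21 CpGs, against 19 for other strong genes and 6 for all 27026 promoters, and among strong regions the CpG count and the percent kept had a Spearman correlation of 0.004 (n = 3292). The letters GGGCGG, searched on both strands like the motifs that follow, were found in 64.3% of the 221 promoters, 67.6% of the 2700 other strong promoters and 33% of all. CCAAT was found in 40.3%, 34.7% and 34.5%, TATAAA in 8.14%, 5.52% and 13%, GGAAGT in 19.9%, 24.9% and 19.9%, and TGACGTCA in 2.71%, 2.93% and 1.60%. A match is a match of letters only, not a bound site.

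Splicing regulators were frequent among the 273, counting each region under the gene of its longest overlap here and for the lists that follow. Each list count is to be read beside 6.72% of all strong regions and 40.4% of those in the densest 10%. The lists were chosen with earlier results of these data known, so their shares are descriptions and not tests of enrichment. Of 39 strong regions on SR and hnRNP genes and related RNA-binding proteins, 16 (41.0%) met the ratio, against 6.72% of all strong regions, and the median of the 39 was 23.5% kept. The list was dense, with a median of 256 counts per kb, and within the densest 10% of strong regions 9 of its 12 met the ratio, against 40.4% of all there. Beside Tra2b, Srsf3, Hnrnpf and Mbnl1, those that met it included Hnrnpa3 (48.4%), Ewsr1 (48.2%) and Ptbp1 (46.4%), a repressor of alternative exons. Relatives could lie far apart. Tra2a kept 17.1 ± 0.478% with 2932, 3295 and 3777 counts against 585, 554 and 576, Srsf1 kept 15.2 ± 0.358%, and Hnrnph1 kept 25.5% where Hnrnph3 kept 12.9 ± 1.56%. Genes with repeats of similar sequence elsewhere, as several hnRNP genes have, carry the same uncertainty as Actg1.

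The Ras superfamily and G-protein list had 13 of 28 strong regions over the ratio (46.4%). It was the densest list, at a median of 309 counts per kb, and 12 of its 17 regions in the densest 10% met the ratio. The median of the 28 was 23.1% kept. Below Rap1b and Cdc42 came Arf1, which drives Golgi coat assembly (44.1 ± 2.37%), and Rhoa, which controls contractility (40.6 ± 2.6%, in a region that also covers most of Tcta). Rac1, which drives lamellipodia, was just inside at 25.4%. Rap1a, the closest relative of Rap1b, kept 19.8 ± 0.512% (16421, 17365 and 19887 counts against 3635, 3452 and 3538), and Arf3 kept 10.8 ± 0.54%. Of 24 strong regions on Rab genes, 4 met the ratio: Rab1a, Rab14 (33.9%), Rab8b (27.6%) and the late endosomal Rab7 (26.7%).

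The actin list had 14 of 39 (35.9%), 8 of them among its 12 in the densest 10%. The median of the 39 was 17.4%. Cap1, which recycles actin monomers, kept 49.9 ± 1.31%, and the Arp2/3 complex subunits Arpc2 and Actr3, which nucleate branched filaments, kept 49.2 ± 1.91% and 48.6 ± 2.2%. Their relatives in the same complex were not all over the ratio: Actr2 was, at 39.9%, while Arpc3 kept 19.4%, Arpc4 18.8% and Arpc5 12.7%. Vasp, which extends filaments, was lowest at 10.1 ± 0.432%.

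**Figure D4:**
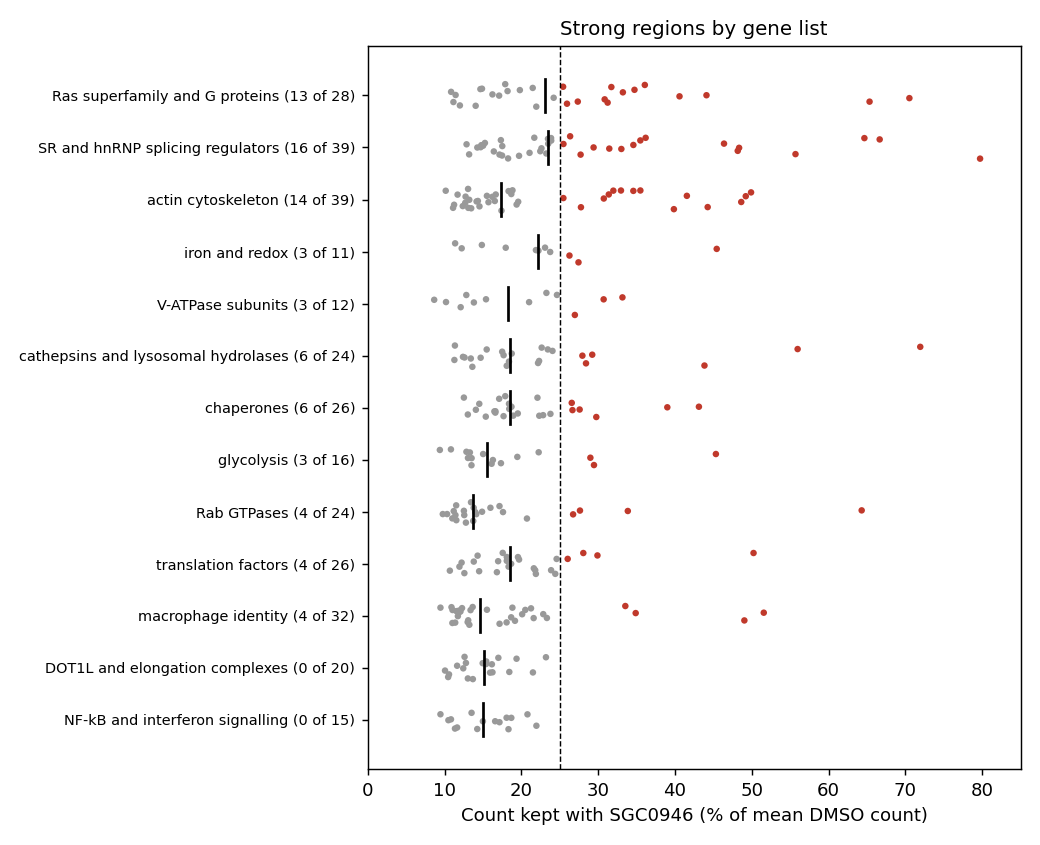
Percent of the mean DMSO count kept (1 point per strong region) by gene list, with the number over the ratio of the number of strong regions, the list median (bar) and the 25% line (dashed). The Ras superfamily and G-protein list (13 of 28) and the SR and hnRNP list (16 of 39) have medians near the line, and each list shown with regions over it also has regions under 15%.

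Lysosomal genes had 6 of 24 over the ratio (25.0%, against 6.72% of all strong regions). Of their 6 in the densest 10%, 4 met it, against 40.4% of all there. After Psap came Lamp1, a major glycoprotein of the lysosomal membrane (56.0 ± 3.23%), and the protease cathepsin B, Ctsb (43.8 ± 2.41%), while the membrane receptor Scarb2 kept 11.3 ± 0.582%. The proton pump of the same organelle had 3 of 12, with Atp6v0c at 33.2% and Atp6v1b2 at 30.7%. Of genes of sterol and fatty acid synthesis, the enzymes Hmgcs1 (32.8%) and Scd2 (27.2%) were over the ratio. The transcription factor Srebf1, which drives lipid synthesis, kept 10.3 ± 0.806%. The iron and redox list had 3 of 11, led by Nfe2l2, the activator of the antioxidant response (45.4 ± 3.25%), whose inhibitor Keap1 kept 11.4 ± 1.14%.

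The chaperone list, which also holds Ywha adaptor genes, had 6 of 26, led by the chaperone Hspa8 (43.1%) and the adaptor gene Ywhae (39.0%). Within the densest 10% the list had 3 of 8, near the 40.4% of all there. Glycolysis had 3 of 16, with Pgam1 at 45.3%, Gapdh at 29.4% and Pkm at 29.0%, and with hexokinase Hk1 at 9.38%. Translation factors had 4 of 26, with Eif3a at 50.2%, and 2 of 6 within the densest 10%. The ubiquitin gene Ubb kept 39.4% and the conjugating enzyme Ube2d3 28.3%. None of 15 strong regions of the NF-kB and interferon list met the ratio, where Rel was highest at 22%. Nor did any of 20 on DOT1L and elongation genes, where the cyclin Ccnt2 was highest at 23.2%. With 6.72% of all strong regions over the ratio, lists this short can hold none, so neither count is read as a depletion. Of these regions 2 and 3 lay in the densest 10%.

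Macrophage identity genes had 4 of 32 strong regions over the ratio (12.5%), or 5 of 33 (15.2%) when any overlap counts. The further region carries the label Senp3 but covers all of Cd68, a glycoprotein of macrophage endosomes, and kept 28.3 ± 1.49% (3701, 3896 and 4405 counts against 1201, 1099 and 1097). Lgals3, which encodes galectin-3, kept 51.6 ± 3.71% (4505, 4830 and 5253 counts against 2706, 2354 and 2462), and Sirpa, the receptor for the anti-phagocytic signal CD47, 49.0 ± 3.37%. The transmembrane glycoprotein Gpnmb kept 34.9 ± 3.61% and the transcription factor Maf 33.5 ± 3.1%. The M-CSF receptor gene Csf1r kept 18.8% and Spi1, which encodes the lineage factor PU.1, 17.2%, both under the ratio.

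Some regions are labelled by a gene that they barely cover. Of the 273, 46 (16.8%) overlapped more than 1 coding gene, against 499 of 3787 (13.2%). The following were singled out after their values were seen. A region at chr2:122147359-122154956 that kept 50.8 ± 4.22% covered 11.5% of Patl2 and all of B2m, the light chain of MHC class I. A region at chr2:34770003-34779729 (34.3 ± 2.38%) covered 20.0% of Rabepk and all of Hspa5, the chaperone BiP of the endoplasmic reticulum. A region at chr19:12457958-12471712 (32 ± 1.94%) covered 15.0% of Dtx4 and all of Mpeg1, a pore-forming protein of macrophages. Genes of the lists that lay under a region labelled by a neighbour were Srsf2 (in the region of Mettl23, 28.9%), Eif4a1 (with Cd68 in that of Senp3), Pfn1 (in that of Rnf167, 25.8%) and Atp6v1a (in that of Naa50, 36 ± 2.3%). Counted by any overlap, the lists had 17 of 42 for SR and hnRNP genes, 5 of 29 for translation factors, 15 of 40 for actin, 4 of 14 for the V-ATPase and 7 of 29 for the chaperone list. Which of the genes the mark belongs to cannot be told from the counts.

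Apart from the region on chromosome 4 with no annotated gene, 2 of the 273 overlapped no coding gene. The nuclear RNA Malat1 (chr19:5794792-5802810) kept 46.2 ± 4.6%. A region at chr13:48533991-48546179 spans hairpins of the let-7 family, microRNAs that repress growth genes. It held 4305, 4625 and 5275 counts with DMSO and 2562, 2292 and 2283 with SGC0946 (50.2 ± 3.35%). Its mature 5p strands, from RefSeq, share 1 seed (bases 2 to 8, in capitals).
let-7a-5p: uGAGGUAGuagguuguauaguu
let-7d-5p: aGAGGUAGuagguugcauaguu
let-7f-5p: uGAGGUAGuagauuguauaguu
The region of Smc4, a condensin subunit, kept 28.6 ± 1.56% and holds hairpins of 2 further microRNAs that share another seed, also in capitals.
miR-15b-5p: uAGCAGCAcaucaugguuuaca
miR-16-5p: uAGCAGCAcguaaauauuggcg
In all, 15 of the 273 regions (5.49%) overlapped an annotated microRNA hairpin, against 70 of 3787 (1.85%). The mark over such a region says nothing of the level of the microRNA.

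Other regions on the same genes gave a measure that the rule did not use. The 273 regions overlapped 322 coding genes, and 165 of these had at least 1 further region, 484 in all, called companions here. Any overlap counts, so some of these genes are barely covered, such as Trim41 (0.195%) and Edem1 (0.733%). Of 402 companions tested, 6 (1.49%) were higher in their share of the library and 65 (16.2%) lower, against 6.16% and 23.3% of all tested regions (edgeR quasi-likelihood test, adjusted p under 0.05). All tested regions include the 273 themselves, each of which was called higher. The rule's ratio was applied to 34 companions with a mean of at least 500 counts, which therefore kept under 25%. Of the other 450, with a mean under 500, 368 were tested, 3 (0.815%) were higher and 39 (10.6%) lower, against 3.93% and 13.4% of all regions of that size. Companions of other strong genes gave 2.49% higher and 9.14% lower among 8280 tested. Summed, the companions under 500 kept 14.7% on the genes of the 273 regions and 15.2% on the other strong genes. They were sparse, with a median of 37.4 counts per kb. Among those with 50 to under 500 counts, 2 of 84 were higher and 38 (45.2%) lower, against 1.3% and 36.4% of all regions in that range. Companions of other strong genes in that range gave 0.842% higher and 30.7% lower among 2375 tested. Among companions under 50 counts, 1 of 284 tested was higher (0.352%) and 1 lower. Companions of other strong genes under 50 counts gave 3.15% higher and 0.491% lower, and all regions of that size 5.41% and 0.536%.

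The sum of these companions' counts was compared with that of companions of other strong genes in each library. It was 4.15%, 4.28% and 4.16% of the latter with DMSO and 4.17%, 3.87% and 4.14% with SGC0946. The means of 4.20 ± 0.0720% and 4.06 ± 0.169% (SD, n = 3 each) did not differ beyond the spread (difference -0.138 percentage points, exact 2-sided permutation p = 0.4, where 3 against 3 libraries allow no p under 0.1). With a background per kb subtracted the difference was 0.114 (exact permutation p = 0.7), so its sign is not settled.

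Values of companions are given gene by gene beside the region over the ratio. Of 95 genes whose companions held at least 100 DMSO counts in sum, 94 had companions that kept less than the region over the ratio, 93 had companions under 25%, and the median was 13.9%. The rule sets one side of this comparison at 25% or more, so the direction is a description. Among all 9947 regions outside the 273 with a DMSO mean of at least 100 counts, 99.6% kept under 25%, those with a mean of at least 500 by the rule, and the median was 13.6%, so the companions were close to regions elsewhere. On Rbpj, 915 bp downstream of the region that kept 72.4%, the companion had 4634, 4543 and 5513 counts with DMSO and 828, 753 and 754 with SGC0946 (15.9%). On Sirpa the region kept 49.0% and the strong companion, with 2896, 2685 and 3188 counts against 349, 328 and 278, kept 10.9%. On Fnip2 the 2 values were 39.7% and 9.80%, and on Dhx9 the region kept 58.5% and 3 companions together 13.2%. Nrros, a regulator of TGF-beta in myeloid cells, had the lowest companion value, 7.91% beside 44.2 ± 3.12%. The companions named here were also less dense than the region over the ratio, and for Rbpj the companion had 208 counts per kb with DMSO against 557. The part of density in these differences was not tested.

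**Figure D5:**
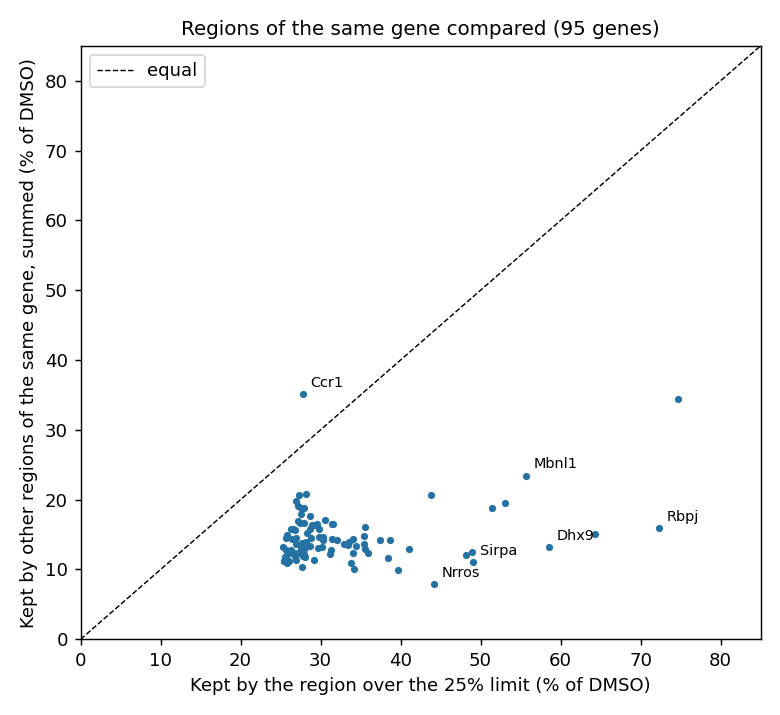
Percent kept by the summed companions of a gene (vertical) against percent kept by its region over the ratio (horizontal), 1 point per gene (95 genes with at least 100 companion counts with DMSO). All points but Ccr1 lie under the line of equality, with a median of 13.9% on the vertical axis.

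The 34 strong companions kept a median of 12.7% (9.80% to 23.5%). For 30 of them, the gene that labels the region over the ratio had a listed strand. On that strand 27 lay downstream of the region and 3 upstream. That gene is not always the companion's own: the Vps13d companion was placed by Dhrs3 and the Trim41 companion by Rack1. Both lie at the start of their own gene, which is upstream on its strand. The largest was on Mbnl1, where 131323 bp beginning 4912 bp downstream of the region kept 23.5%, just under the limit. Of the 6 companions called higher, 5 lay on Plppr3 (66.7% kept, from 19, 29 and 21 counts to 14, 15 and 17), Ccr1 (35.1%), Mbnl1 (23.5%), Edem1 (20.7%) and Msl2 (20.7%), and are named for their values. The region over the ratio is labelled by a neighbour for Plppr3 (19.6% covered) and Edem1 (0.733% covered). Of the companions under 500 counts within 2 kb of the region, 2 of 111 tested were higher and 20 (18.0%) lower, and together they kept 14.6%. At 10 kb or more, 1 of 145 was higher and 12 (8.28%) lower, and together they kept 15.1%. The difference with distance was not tested. Genes with the most companions were Vps13d with 22 (its region lies over Dhrs3 inside the gene's span), Lcp1 with 14, Chd2 with 13, and Papola and Setd5 with 12 each. Their companions together kept 14.2%, 16.1%, 18.8%, 17.1% and 18.8%.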

How the data were processed

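H3K79me2 ChIP-seq was analysed in 3 DMSO and 3 SGC0946 libraries. The deposited table holds the authors' whole-number read counts per region with no scaling visible. The build was mm10 and the tools named were R 3.6.3, ChIPseeker 1.20.0, HOMER 4.11.1, HISAT2 and bedtools 2.27.0, per the submitters' processing notes. The sources used here do not say which of them called regions or counted reads, or how duplicates and multiply matching reads were treated, and each choice could change the counts. No spike-in is named in the labels.

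Starts were read as zero-based and are printed 1-based. Regions took the RefSeq coding gene (GRCm38.p6) with the longest overlap, and exons were not separated. The test was the quasi-likelihood F test of edgeR 4.0.16 under R 4.3.3 (filterByExpr by group, library totals with factors of 1, Benjamini-Hochberg over all regions tested). A change in share is the fold change of that fit. Companion regions are all other regions on chromosomes 1 to 19 that overlap a coding gene of the 273. DESeq2 1.42.0, TMM factors, other filters, unscaled counts, background subtraction (median counts per kb of the sparsest 10% of regions), a replicate block and leaving out each library were alternatives. Pairs of libraries within a group differed by more than sampling noise (chi-square per degree of freedom 1.32 to 2.38). In simulated counts for this comparison (24026 regions tested, 50 changed per fold), 28% of 1.25-fold, 46% of 1.5-fold, 88% of 2-fold and 98% of 4-fold changes were recovered, with 2 false calls. The changed regions were drawn only from those with a mean count above the median of the companions (18.25 counts). Recovery at lower counts was not measured.

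The 273 regions, the gene lists and the tests were chosen with earlier results of these data known. Named regions were the 10 with the highest percent kept, the 5 with the most counts, the 4 longest and 4 shortest, those nearest each limit, per list the 3 highest and the lowest (further list regions serve as examples), the macrophage and DOT1L regions over the ratio, and the 5 genes with the most companions. The 5 promoters printed were chosen after values were seen. Of the 273 regions, 51 had no entry in the promoter table. Some regions and lists that this rule names are not reported here. Skp1a was not matched to the annotation.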

Additional observations from a re-analysis of the deposited data

How the results depend on the processing

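Each result on the 273 regions moved most with the limits that define them. With a ratio of at least 0.20 there were 536 regions with a median of 25.3% kept, and with 0.33 there were 106 with a median of 39.5%. The share of SR and hnRNP regions was 64.1% at 0.20, and at 0.33 those of the Ras superfamily and the actin lists were 25.0% and 20.5%. Leaving out each library gave 250 to 313 regions and medians of 30.03% to 30.68%. After background subtraction 248 regions met the rule, all of them among the 273.

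The number tested differed between settings, so each count is given with it. Companions called higher (6 of 402) were 13 of 402 with DESeq2 size factors and also with TMM factors, and 3 of 368 with a mean under 500. On unscaled counts they were 0 of 437 (edgeR quasi-likelihood test, also 0 at an unadjusted p under 0.05). Leaving out each library gave from 6 of 167 (without DMSO replicate 1) to 10 of 481 (without SGC0946 replicate 3). Companions called lower (65 of 402) were 43 of 402 with DESeq2 size factors, 36 of 484 with DESeq2's Wald test and 435 of 437 unscaled. They were 132 of 268 after background subtraction and 39 of 368 with a mean under 500. Over all regions, 1440 higher calls of 23367 tested became 2506 of 29397 with the Wald test and 2784 of 29397 without a filter. They were 808 of 11055 at a mean of at least 50 and 5 of 24895 unscaled. Leaving out each library gave from 918 of 13575 (without DMSO replicate 3) to 2155 of 28733 (without SGC0946 replicate 3). The 5439 lower calls of 23367 tested became 3218 with size factors of DESeq2 and 3524 with TMM factors, with the same number tested. They were 2831 of 29397 with the Wald test, 9195 of 16879 after background subtraction and 24820 of 24895 unscaled. The difference in summed companion counts reversed from -0.138 to 0.114 after background subtraction. The cause of these changes was not tested, apart from the scalings, which move all regions together.

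The library titles use the same numbers in both groups and do not say what the numbers stand for. Deviations of same-numbered libraries from their group means had correlations of 0.01, -0.114 and -0.013 over 11055 regions. Libraries with unlike numbers gave -0.099 to 0.103. So few libraries per group cannot decide whether the numbers mark pairs, and the main fit did not use them. With the replicate block 6 companions were higher and 63 lower, and 1414 and 5202 of all regions, so no count moved by 1.5 times.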
